A study of Mus musculus with 19 samples.

Results

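Hippocampal RNA libraries with a high level of Ifit3, an interferon-stimulated gene, were compared with libraries with a low level from animals of the same genotype and sex. Each library is bulk RNA sequencing of the left hippocampus of 1 mouse aged 4 months. The 19 libraries fall into 4 groups, namely 5xFAD females (labelled 5xFADHEMI, n = 5), 5xFAD males (n = 5), knock-in females (5xFADHEMI:CLUh2kbKIHO, n = 4) and knock-in males (n = 5). All 4 groups carry the hemizygous 5xFAD transgenes, mutant human amyloid precursor protein and presenilin under the neuronal Thy1 promoter, and the knock-in groups carry in addition the clusterin knock-in allele. None of the groups used here lacks the 5xFAD transgenes. The 16 libraries compared were chosen by their Ifit3 level within each group, as count divided by library total times 1000000 (unscaled CPM). The 2 highest were called high, the 2 lowest were called low, and the middle library of each group of 5 was set aside, which kept 16 of 19 libraries, 8 high and 8 low. High and low are thus a measured level and not a treatment, and Ifit3 itself is left out of every result.

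Interferons are cytokines that cells release on sensing foreign or misplaced nucleic acid. Type I interferon binds the receptor pair Ifnar1 and Ifnar2, and the kinases Jak1 and Tyk2 then activate transcription factors that switch on interferon-stimulated genes together with Irf9. Interferon gamma acts through a receptor of its own, Ifngr1 and Ifngr2. In brain with amyloid plaques, a subset of microglia is known to express such genes. The DNA element bound by Irf proteins, Irf9 among them, holds repeats of GAAA, and the sequences that lie at the start of interferon-stimulated genes are therefore shown before their RNA levels.

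The 5 windows printed here belong to members of the interferon effector list described below, the 4 members with the lowest p that hold GAAA, any 2 bases and GAAA again on either strand, and the member with the lowest p that does not. Each runs from 250 bases before to 50 bases after the annotated start, is written 5′ to 3′ on the strand of the gene, and comes from RefSeq on GRCm38.p6, a build other than the authors' mm39. Capitals mark each match, as this repeat of GAAA or, for a match on the other strand, as TTTC, any 2 bases and TTTC. Ifit1 (chr19:34640639-34640938, plus strand) holds 2 matches, Slfn5 (chr11:82951852-82952151, plus strand) 1 match that runs into a stretch of A, Bst2 (chr8:71537423-71537722, minus strand) 2 overlapping matches, Trim30d (chr7:104507800-104508099, minus strand) 1 match and Lgals3bp (chr11:118401910-118402209, minus strand) none.
Ifit1: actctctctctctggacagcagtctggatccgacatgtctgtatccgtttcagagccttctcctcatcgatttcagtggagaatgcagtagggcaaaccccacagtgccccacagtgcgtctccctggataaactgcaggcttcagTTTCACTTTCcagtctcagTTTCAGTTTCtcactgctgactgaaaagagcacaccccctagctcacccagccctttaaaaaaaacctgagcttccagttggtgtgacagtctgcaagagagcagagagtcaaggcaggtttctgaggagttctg
Slfn5: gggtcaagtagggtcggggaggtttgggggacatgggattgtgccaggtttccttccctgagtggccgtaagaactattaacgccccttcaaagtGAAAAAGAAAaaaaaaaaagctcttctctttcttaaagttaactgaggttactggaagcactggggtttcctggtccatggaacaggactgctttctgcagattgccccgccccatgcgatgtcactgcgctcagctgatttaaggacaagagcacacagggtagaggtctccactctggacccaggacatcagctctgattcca
Bst2: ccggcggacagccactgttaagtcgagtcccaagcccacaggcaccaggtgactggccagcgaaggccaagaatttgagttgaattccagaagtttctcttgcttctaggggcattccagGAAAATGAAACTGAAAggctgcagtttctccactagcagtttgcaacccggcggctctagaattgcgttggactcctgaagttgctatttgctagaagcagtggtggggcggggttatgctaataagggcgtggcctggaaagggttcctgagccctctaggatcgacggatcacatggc
Trim30d: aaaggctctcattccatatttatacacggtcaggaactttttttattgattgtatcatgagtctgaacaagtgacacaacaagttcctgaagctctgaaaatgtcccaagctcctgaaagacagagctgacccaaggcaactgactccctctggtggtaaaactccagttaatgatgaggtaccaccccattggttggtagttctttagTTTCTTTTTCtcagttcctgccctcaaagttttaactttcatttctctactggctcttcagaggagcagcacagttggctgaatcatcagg
Lgals3bp: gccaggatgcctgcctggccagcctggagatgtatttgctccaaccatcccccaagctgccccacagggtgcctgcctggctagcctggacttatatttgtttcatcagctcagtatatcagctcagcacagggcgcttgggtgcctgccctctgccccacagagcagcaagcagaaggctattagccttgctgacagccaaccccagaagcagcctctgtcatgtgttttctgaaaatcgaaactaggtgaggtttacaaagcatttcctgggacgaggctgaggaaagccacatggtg

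The nearest match lay 75 bases before the annotated start of Ifit1, 145 before that of Slfn5, 114 before that of Bst2 and 31 before that of Trim30d. Of the tested genes 12547 had such a window, and 472 of these genes (3.76%) held the GAAA repeat, the motif meant below. The motif stood in 3.44% of all 32851 windows of the table, a share of windows and not of genes. Among the interferon effectors it was present in 20 of 42 genes with a window (47.6%). Among the guanylate-binding proteins and immunity-related GTPases, families that interferon gamma is known to induce, it was present in 9 of 9. Of genes with a window, the motif stood in 5 of 17 major histocompatibility complex (MHC) class I genes (29.4%) and in 3 of 21 disease-associated microglia genes (14.3%). A match is a run of letters and not a measured binding site, and the absence of a match in Lgals3bp says only that these letters are not in that window.

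Ifit3 set the states, so its values are a description. In 5xFAD females the low libraries held 12.2 and 18.6 unscaled CPM, the middle library 19.6 and the high libraries 23.5 and 33.3. In 5xFAD males the values were 8.99 and 11.8 in the low, 12.6 in the middle and 14.2 and 17.4 in the high libraries. All libraries of this group lay below 5xFAD female 1, which counts as low in its own group, so a state is relative to its group. Knock-in females gave 14.9 and 17.3 in the low and 26.0 and 30.2 in the high libraries. Knock-in males gave 13.2 and 14.7 in the low libraries and 22.4 and 23.5 in the high ones. The middle library of that group, knock-in male 8, stood at 22.3 from 491 counts, next to the high knock-in male 7 at 22.4 from 438 counts. Placing male 8 in the high state in place of male 7 is given below as an alternative chosen after seeing the data.

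**Figure D1:**
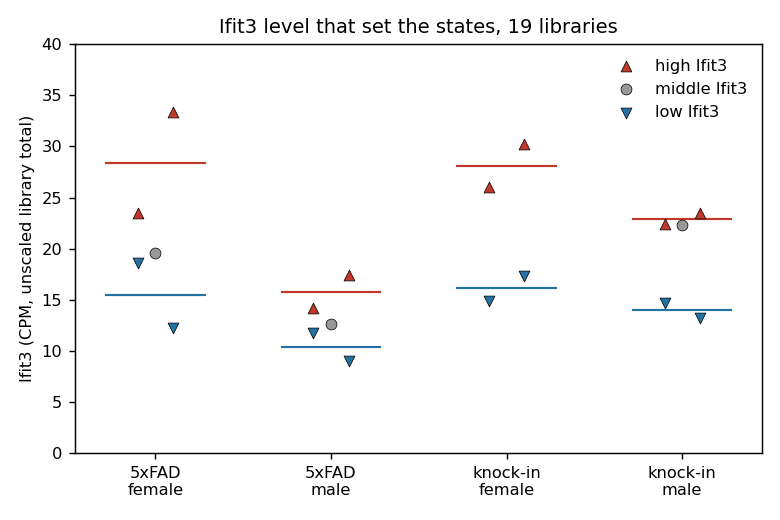
Ifit3 level in unscaled CPM, count over library total times 1000000 (vertical axis, linear, from 0) for the 19 libraries in their 4 groups. Triangles pointing up are high, triangles pointing down low and grey circles middle libraries, horizontal lines are means of 2 libraries, and the high 5xFAD males at 14.2 and 17.4 lie below the low 5xFAD female at 18.6.

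Library totals, in mega counts (M), ran from 17.3 to 25.2 M over all 19 libraries, with a mean of 20.2 ± 2.06 M (SD, n = 8) in the high and 19.4 ± 1.13 M (SD, n = 8) in the low libraries. Sex-specific transcripts matched the labelled sex in 19 of 19 libraries. Granule cell and pyramidal cell markers of the hippocampus were all in the table, with summed levels of 330.2 to 620.9 CPM for the 6 dentate genes and 1002 to 1547 CPM for the 7 pyramidal genes over the 16 libraries. Levels of genes below are CPM after TMM scaling of the library totals, and changes are log2 differences, high minus low, with the group as a block, tested with edgeR's quasi-likelihood test. In bulk RNA a lower level can come from fewer cells of a type or from less RNA per cell, and the data cannot tell these apart.

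No gene passed the adjusted p threshold of 0.05 between high and low libraries. Of 17986 genes tested with edgeR, 0 were higher and 0 lower (percent called 0 in both directions), and the lowest adjusted p was 0.141. At an unadjusted p below 0.05 there were 1056 genes (5.87%), 501 higher (2.79%) and 555 lower (3.09%). limma-voom also called 0 genes, while DESeq2 called 9 higher and 2 lower. Leaving out genes whose mean lay below 1 log2 CPM, the 5 with the lowest p were Lgals3bp, Slfn2, Cst7, Pitpnm3 and Ifit1. Ccl12, with a mean of 0.039 log2 CPM, had a p between those of Slfn2 and Cst7. DESeq2 placed Lgals3bp, Slfn2, Ifit1, Cst7, Ccl12, Ctsd, Oasl2 and Syngr2 among those higher, and Pitpnm3 and Gm48754 as the lower ones. The statements on single genes below are therefore values with their errors, and none is a call by the edgeR test.

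Lgals3bp, a secreted glycoprotein that binds galectins and is known to be induced by interferon, ran from 42.7 to 93.9 CPM with a median of 73.8 in the high libraries. In the low libraries it ran from 26.0 to 69.1 with a median of 48.5. Both high libraries exceeded both low libraries in each of the 4 groups, and 5 of 8 high libraries exceeded all 8 low ones. The change was 0.60 (SE 0.095, unadjusted p = 7.82e-06, adjusted p = 0.141), and the differences within the groups were 0.65 in 5xFAD females, 0.68 in 5xFAD males and 0.54 in both knock-in sexes. Slfn2, a Schlafen family member known for keeping T cells quiescent, ran from 2.07 to 5.49 CPM with a median of 3.30 in the high libraries and from 1.33 to 2.03 with a median of 1.67 in the low ones. Its lowest high library lay just above its highest low library, with 38 to 136 counts in the high and 27 to 38 in the low libraries. How many of all tested genes show as little overlap was not counted. Its change was 1.03 (SE 0.18, unadjusted p = 2.03e-05, adjusted p = 0.182). With knock-in male 8 in place of male 7, Lgals3bp (0.66, adjusted p = 0.00481) and Slfn2 (1.15, adjusted p = 0.0419) passed the threshold. Without knock-in male 7, Lgals3bp passed it (0.66, adjusted p = 0.0376).

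Separation in every group was rare. Both high libraries exceeded both low libraries in all 4 groups for 37 of the 17986 genes (0.206%) and lay below them in all 4 for 13 (0.0723%). In at least 3 groups the high libraries exceeded the low ones for 298 genes (1.66%). Of the 37, 8 belong to the interferon or MHC class I lists, among them Lgals3bp, Slfn2, Ifit1, Ifit2, Ifi44, Usp18 and Psme1. By list these were 5 of 52 effectors, 1 of 22 receptor and signalling genes and 1 of 21 MHC class I genes. The last was 1 of 11 genes of ISG15 conjugation and ADP-ribosylation, and 0 of 16 guanylate-binding genes and 0 of 22 sensors were among them. The libraries were ranked by a gene of the same response, so this overlap is not independent of that choice. A further 3 belong to the microglial lists, namely Cst7, Clec7a and Ctsb, which is 3 of 26 disease-associated and 0 of 17 homeostatic genes. Of these, Ctsb falls outside the rule for named genes and was named after its values were seen.

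**Figure D2:**
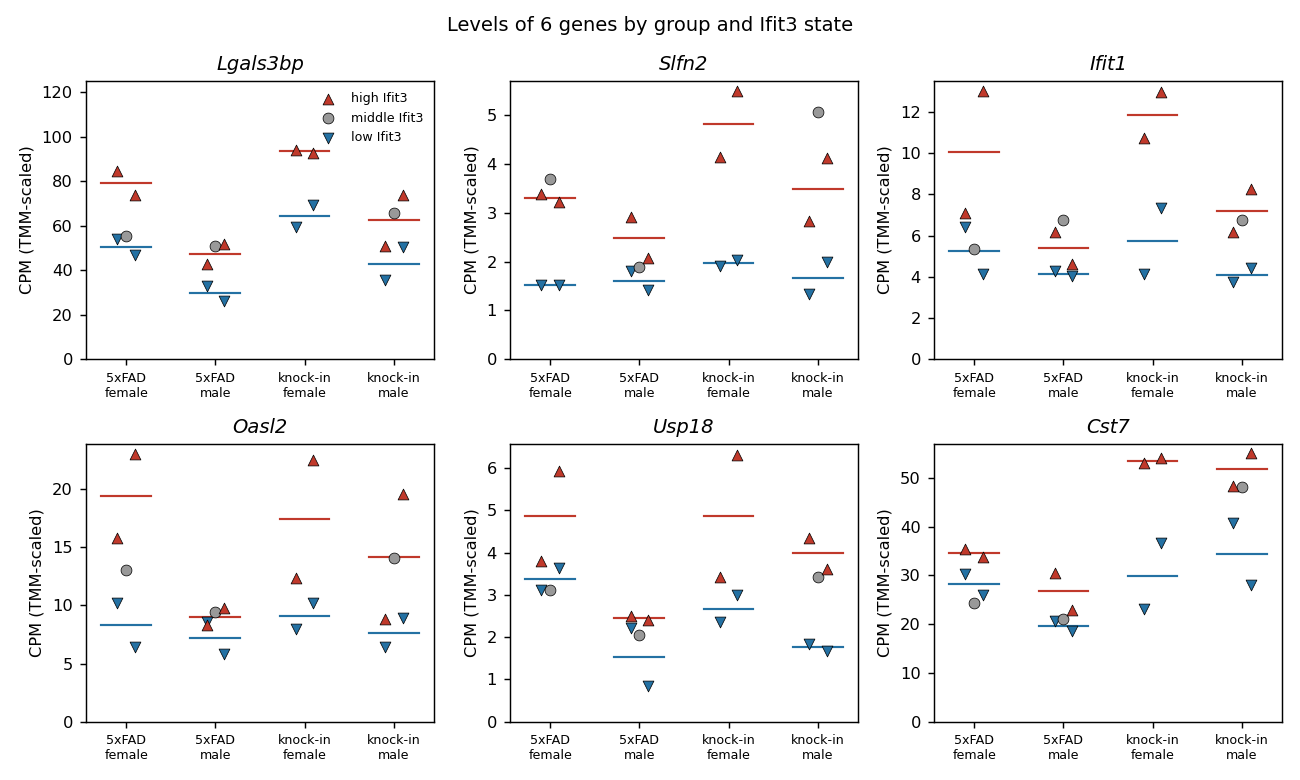
Levels in CPM (vertical axes, linear, from 0, TMM-scaled) of Lgals3bp, Slfn2, Ifit1, Oasl2, Usp18 and Cst7 in 19 libraries by group. Triangles pointing up are high, triangles pointing down low and grey circles middle Ifit3 libraries, and lines are means of 2 libraries. Slfn2 ran from 2.07 to 5.49 in the high and from 1.33 to 2.03 in the low libraries.

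None of the 6 interferon genes of the ligand list was tested. Il15 and Il18, cytokines listed with the ligands, were the 2 tested members. Il15 ran from 0.455 to 1.38 CPM in the high and from 0.237 to 1.69 in the low libraries, with a change of 0.29 (SE 0.34, adjusted p = 0.892). Il18 ran from 9.15 to 15.1 in the high and from 8.45 to 14.2 in the low libraries, with a change of 0.036 (SE 0.13, adjusted p = 0.971). The states of both genes overlapped almost fully. The other 6 ligand genes of the list, the interferons, had no entry under their symbols in the counts, so their levels are unknown here. Interferon genes outside the list are not covered by this statement.

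Of 22 receptor and signalling genes, 13 had a change above 0, against 47.1% of all tested genes, and the median change was 0.066 beside a median of -0.011 over all tested genes. At an unadjusted p below 0.05, 4 were higher (among them Irf7, Ptpn6 and Ifnar2) and 1 was lower (Tyk2), which is 18.2% and 4.55% against 2.79% and 3.09% of all genes. Irf7, the factor that amplifies type I interferon production, ran from 3.84 to 10.6 CPM with a median of 6.12 against 1.62 to 6.06 with a median of 3.63. Its change was 0.84 (SE 0.23, adjusted p = 0.8), and the states were separated in 3 groups.

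The phosphatase Ptpn6, which restrains cytokine receptor signalling, had a change of 0.38 (SE 0.12) and the receptor chain Ifnar2 a change of 0.24 (SE 0.098). The kinase Tyk2, which sits on the type I receptor, had a change of -0.30 (SE 0.13), with -0.77 in knock-in males and between -0.25 and -0.077 in the other groups. Irf8, a transcription factor of microglia and macrophages, had a change of 0.22 (SE 0.14) with no group separated. The adjusted p of these 4 genes was 0.8 or 0.803.

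Among 22 nucleic acid sensors and their adaptors, 14 had a change above 0 and the median was 0.16. At an unadjusted p below 0.05, 2 were higher (9.09%, against 2.79% of all genes) and 1 was lower (4.55%, against 3.09%). Zbp1, a sensor of Z-form nucleic acid, ran from 0.708 to 2.22 CPM with a median of 1.14 in the high libraries and from 0.261 to 1.73 with a median of 0.439 in the low ones (change 1.04, SE 0.37, adjusted p = 0.8). These are 13 to 55 counts in the high and 5 to 33 in the low libraries, so single libraries weigh on the value. Dhx58, an RNA helicase that modulates RNA sensing, had a change of 0.47 (SE 0.22). Cgas, the cytosolic DNA sensor, ran the other way, from 1.14 to 2.71 CPM with a median of 1.63 in the high libraries and from 1.34 to 3.74 with a median of 2.48 in the low ones (change -0.47, SE 0.18, adjusted p = 0.8). In 3 groups both high libraries lay below both low ones for Cgas. Ikbke, a kinase downstream of the sensors, had a change of -0.57 (SE 0.28), and the DNA-binding PYHIN proteins Ifi207 (0.69, SE 0.34) and Ifi204 (0.65, SE 0.33) had positive values. Ifi204 shares 31.2% and Ifi207 13.4% of its 31-base words with other listed genes, so their counts are uncertain.

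The interferon effectors, the antiviral and regulatory products of interferon-stimulated genes, formed the longest list. Of 52 tested members 48 had a change above 0, and the median change was 0.40 beside -0.011 for all tested genes. At an unadjusted p below 0.05, 22 were higher (42.3%, against 2.79% of all genes) and 0 were lower, and 0 passed the adjusted threshold by edgeR. Summed over the list, the level ran from 646.8 to 878.3 CPM with a median of 768.5 in the high libraries and from 565.8 to 746.0 with a median of 626.3 in the low ones. Of the high libraries, 5 of 8 exceeded every low library. The libraries were ranked by a gene of the same response, so these counts describe how far other effectors follow Ifit3 and are not evidence independent of that choice of gene.

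Ifit1, which binds RNA with foreign caps and is encoded in the same gene cluster as Ifit3, ran from 4.63 to 13.1 CPM with a median of 7.68 in the high libraries and from 3.74 to 7.32 with a median of 4.22 in the low ones. The states overlapped across groups but not within any group, and the change was 0.80 (SE 0.17, adjusted p = 0.646). Ifit2, another RNA-binding family member, ran from 10.3 to 15.1 CPM with a median of 13.1 against 8.0 to 10.9 with a median of 10.1 (change 0.36, SE 0.097, adjusted p = 0.8). Of its high libraries 6 of 8 exceeded all low ones. Ifi44, an interferon-induced protein, ran from 1.14 to 3.72 CPM with a median of 2.19 against 0.663 to 2.03 with a median of 1.10, and 7 of 8 high libraries exceeded all low ones (change 0.91, SE 0.25, adjusted p = 0.8).

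Oasl2, a relative of the oligoadenylate synthetases, ran from 8.33 to 23.03 CPM with a median of 14.1 in the high libraries and from 5.84 to 10.2 with a median of 8.24 in the low ones. The states were separated in 2 groups, and the differences were 1.22 in 5xFAD females, 0.35 in 5xFAD males, 0.88 in knock-in females and 0.79 in knock-in males (change 0.85, SE 0.20, adjusted p = 0.788). Among the genes whose promoters are shown, Slfn5, a nuclear Schlafen protein, had a change of 0.43 (SE 0.12), Bst2, the tetherin that holds budding virus at the membrane, 0.66 (SE 0.19), and Trim30d, a tripartite motif protein, 0.61 (SE 0.18), each with an adjusted p of 0.8. Bst2 ran from 9.73 to 21.2 CPM in the high and from 4.02 to 17.2 in the low libraries, and its difference was 1.31 in 5xFAD males and -0.009 in knock-in males. Ifit3b, a near copy that shares 54.1% of its 31-base words with Ifit3, had a change of 0.46 (SE 0.11, adjusted p = 0.8), but reads of the ranking gene may be counted in it, so it supports nothing here.

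The promoter motif did not separate the effectors by size of change. The 20 with the GAAA repeat in the window had a median change of 0.42 (lowest -0.022, highest 0.83), and the 22 without it a median of 0.39 (lowest -0.19, highest 1.03). Lgals3bp, with no match, had a lower p than any of the 4 genes with a match that are printed. Of the 50 genes with the lowest p, 41 had a window and 7 of these (17.1%) held the motif, against 3.76% of the tested genes with a window. The libraries were ranked by an interferon-stimulated gene, so this share is not independent of that choice.

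Of the 11 genes of ISG15 conjugation and ADP-ribosylation, 10 had a change above 0, with a median of 0.14, and 4 were higher (36.4%, against 2.79% of all genes) and 0 lower at an unadjusted p below 0.05. Usp18, the protease that removes ISG15 and dampens the type I receptor, ran from 2.40 to 6.30 CPM with a median of 3.72 in the high libraries and from 0.835 to 3.64 with a median of 2.29 in the low ones. It was separated in all 4 groups (change 0.81, SE 0.21, adjusted p = 0.8). Isg15, the ubiquitin-like modifier itself, ran from 2.60 to 5.31 CPM with a median of 3.36 against 1.02 to 5.90 with a median of 2.02. The highest value of all was in 5xFAD female 1, a low library, and the difference was -0.10 in knock-in males and 1.27 in knock-in females (change 0.58, SE 0.26, adjusted p = 0.8). Ube2l6, the enzyme that conjugates ISG15, had a change of 0.35 (SE 0.12), and the ADP-ribosyltransferases Parp14 and Parp9 had changes of 0.43 (SE 0.14) and 0.39 (SE 0.19). Parp12, of the same family, stood at 0.12 (SE 0.11).

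All 16 tested guanylate-binding proteins and immunity-related GTPases, large GTPases that attack the vacuoles of intracellular pathogens, had a change above 0, with a median of 0.40, and 7 were higher at an unadjusted p below 0.05 (43.8%, against 2.79% of all genes). Gbp3 ran from 5.45 to 13.6 CPM with a median of 9.69 in the high libraries and from 4.85 to 8.57 with a median of 6.68 in the low ones (change 0.44, SE 0.12, adjusted p = 0.8). Gbp5 ran from 3.98 to 7.03 CPM with a median of 5.27 against 2.84 to 4.43 with a median of 3.90 (change 0.53, SE 0.16, adjusted p = 0.8). For each of them 6 of 8 high libraries exceeded all low ones. Irgm1, a regulatory GTPase of the family, had a change of 0.36 (SE 0.12), and Gbp2 a change of 0.43 (SE 0.18). Gbp6 (0.50, SE 0.20) shares 74.1% and Tgtp2 (0.61, SE 0.26) 90.5% of its 31-base words with other listed genes, so their values are uncertain.

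MHC class I genes and the immunoproteasome present peptides from inside the cell and are known interferon targets. Of 21 tested, 20 had a change above 0, with a median of 0.34, and 8 were higher (38.1%, against 2.79% of all genes) and 0 lower (against 3.09%) at an unadjusted p below 0.05. Psme1, a subunit of the proteasome activator, ran from 32.6 to 45.1 CPM with a median of 36.7 in the high libraries and from 28.1 to 33.9 with a median of 30.3 in the low ones. It was separated in all 4 groups, with differences between 0.22 and 0.33 (change 0.29, SE 0.072, adjusted p = 0.8). Tapbp, the tapasin that loads peptide, ran from 32.1 to 64.3 CPM with a median of 45.8 against 30.9 to 43.0 with a median of 37.2 (change 0.34, SE 0.084, adjusted p = 0.8). The light chain B2m had a change of 0.35 (SE 0.12), with 0.67 in knock-in females, 0.53 in knock-in males, 0.14 in 5xFAD females and 0.083 in 5xFAD males. The immunoproteasome subunit Psmb8 had a change of 0.39 (SE 0.16). The heavy chains H2-D1 (0.47, SE 0.16), H2-K1 (0.37, SE 0.14) and H2-Q4 (0.50, SE 0.13) share 22.7% to 38.4% of their 31-base words with other listed genes and are uncertain for that reason.

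MHC class II genes, which present peptides from outside the cell and are induced by interferon gamma, had the highest median of the immune lists, 0.60 over 7 genes, with 4 of 7 higher at an unadjusted p below 0.05 (57.1%, against 2.79% of all genes). With only the single highest and lowest Ifit3 library of each group, 4 against 4, the class II median was 0.21 with 0 of 7 at an unadjusted p below 0.05 by edgeR, below the effectors (0.44), the guanylate-binding list (0.41) and MHC class I (0.40). The summed level of the class II genes ran from 29.2 to 174.6 CPM with a median of 43.4 in the high libraries and from 28.1 to 48.8 with a median of 40.5 in the low ones, so the medians lay close and a few high libraries stood far above. Cd74, the invariant chain, was at 100.5 CPM in knock-in female 5, 67.8 in 5xFAD female 2 and 33.9 in knock-in female 4, and at 8.94 to 15.5 in the other 5 high libraries, against 6.63 to 18.1 in the low libraries. Its change was 1.01 (SE 0.40, adjusted p = 0.8). H2-Eb1, a class II beta chain, followed with 14.3 CPM in knock-in female 5, 11.4 in 5xFAD female 2 and 9.33 in knock-in female 4 (change 1.09, SE 0.33, adjusted p = 0.8). Leaving out 5xFAD female 2 brought the median of the class II list to 0.31, with 1 of 7 genes higher at an unadjusted p below 0.05. Leaving out knock-in female 5 brought it to 0.45, with 3 of 7.

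**Figure D3:**
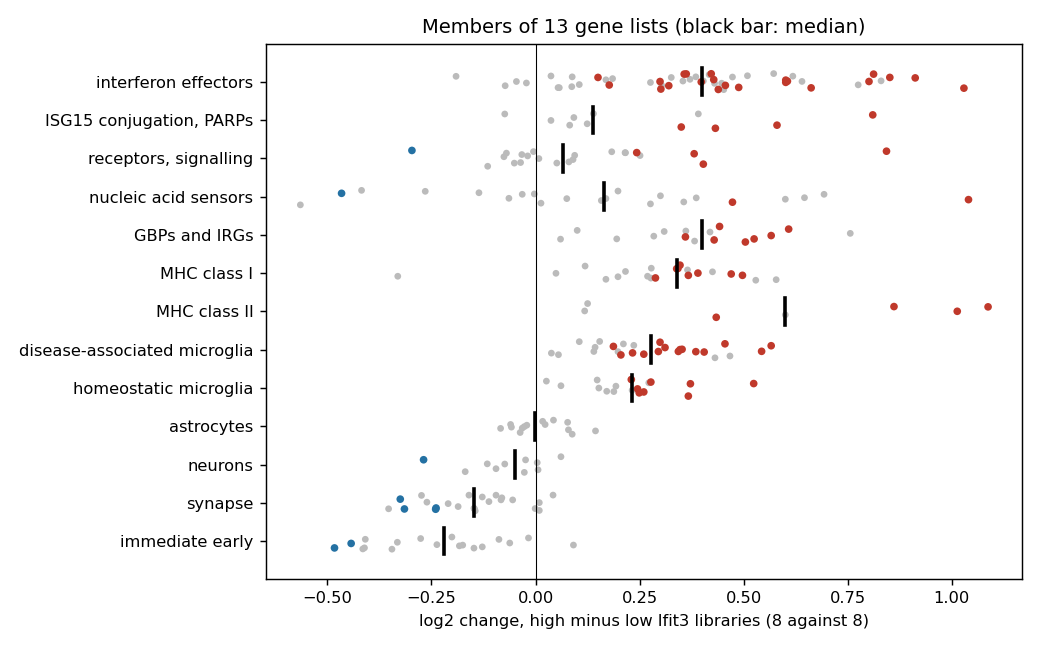
Log2 change, high minus low Ifit3 libraries (horizontal axis, 8 against 8 libraries), of the tested genes of 13 lists. Each point is a gene, red where higher and blue where lower at an unadjusted p below 0.05 and grey otherwise, black bars are medians, and the effector median of 0.40 and the MHC class II median of 0.60 lie to the right while the synaptic median of -0.15 lies to the left. None of the points passed the adjusted threshold.

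Of 15 chemokine and cytokine genes 12 had a change above 0, with a median of 0.26 and 5 higher at an unadjusted p below 0.05 (33.3%, against 2.79% of all genes). Ccl12, a chemokine that attracts monocytes, ran from 0.401 to 2.46 CPM with a median of 1.31 in the high libraries and from 0.209 to 0.892 with a median of 0.311 in the low ones. It was separated in all 4 groups (change 1.67, SE 0.35, adjusted p = 0.646), from 8 to 51 counts in the high and 4 to 17 in the low libraries. Cxcl16, a membrane-bound chemokine, had a change of 0.61 (SE 0.17) and Ccl3, a macrophage inflammatory protein, a change of 0.61 (SE 0.26). Ccl3 differed by 1.41 in knock-in males and 1.08 in knock-in females but by -0.26 in 5xFAD females. Of 13 targets of NF-kappa-B, the factor of the toll-like receptor and tumour necrosis factor pathways, 10 had a change above 0, with a median of 0.11 and 0 at an unadjusted p below 0.05 by edgeR.

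Microglial genes had changes above 0, and none passed the adjusted threshold by edgeR. All 26 disease-associated microglia genes and all 17 homeostatic microglia genes had a change above 0, with medians of 0.28 and 0.23, and 15 (57.7%) and 8 (47.1%) were higher at an unadjusted p below 0.05, against 2.79% of all genes. The summed level of the homeostatic list ran from 723.1 to 1250 CPM with a median of 919.7 in the high libraries and from 652.9 to 1116 with a median of 782.7 in the low ones. The disease-associated list ran from 4128 to 6778 CPM with a median of 4996 against 3761 to 5402 with a median of 4451. The states overlapped in both lists, and in each 3 of 8 high libraries exceeded every low one. The part of these levels in the interferon values was not tested. The homeostatic list rose with the states itself, so using its level as a covariate cannot separate its part from a shared rise. The values of that fit are given as a description. With the mean level of the homeostatic list as a covariate, the effector median was 0.22 in place of 0.40, 42 of 52 effectors had a change above 0, and 8 were higher at an unadjusted p below 0.05. With that covariate the median was 0.23 for the guanylate-binding list, 0.24 for MHC class I, 0.61 for MHC class II and 0.086 for the disease-associated list. Medians of the ligands (-0.12), the sensors (-0.051, 6 of 22 genes above 0) and the receptor and signalling list (-0.033, 9 of 22) turned below 0 with it.

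Cst7, a cystatin of plaque-associated microglia, ran from 22.9 to 55.2 CPM with a median of 41.9 in the high libraries and from 18.5 to 40.8 with a median of 27.0 in the low ones, separated in all 4 groups (change 0.54, SE 0.11, adjusted p = 0.646). Clec7a, the beta-glucan receptor dectin-1 and a marker of the same state, ran from 10.9 to 23.3 CPM with a median of 15.8 against 7.32 to 20.3 with a median of 11.1 (change 0.57, SE 0.14, adjusted p = 0.8). The lysosomal protease Ctsd had a change of 0.35 (SE 0.080, adjusted p = 0.788). Among homeostatic genes, the fractalkine receptor Cx3cr1 ran from 46.9 to 91.6 CPM with a median of 63.2 against 38.8 to 64.8 with a median of 48.2 (change 0.37, SE 0.087, adjusted p = 0.788). Siglech, a sialic acid-binding lectin, and Fcrls, an Fc receptor-like scavenger protein, had changes of 0.37 (SE 0.10) and 0.28 (SE 0.089). Of 18 complement genes and receptors 17 had a change above 0, with a median of 0.25, and 3 were higher at an unadjusted p below 0.05 (16.7%, against 2.79% of all genes). These were Itgax (0.46, SE 0.16) and Itgb2 (0.25, SE 0.12), chains of complement receptors, and C3ar1 (0.42, SE 0.18), an anaphylatoxin receptor.

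Many of the listed markers of blood-borne immune cells were not tested. Of 16 T and NK cell markers 2 were tested and of 7 B and plasma cell markers 3, and their summed levels were 1.35 to 2.86 CPM in the high and 1.16 to 2.62 in the low libraries for T and NK cells. Igkc, the immunoglobulin light chain constant gene, had a change of 1.40 (SE 0.63, adjusted p = 0.8) from 2 to 22 counts in the high and 0 to 9 in the low libraries. The other 2 tested B and plasma cell markers had changes below 0, the lowest -0.856, and the median of the list was -0.072. For monocytes 3 of 6 markers were tested, with a median of -0.087, and for neutrophils and mast cells 1 of 8. Summed levels of the monocyte markers were 35.2 to 71.1 CPM in the high and 37.45 to 68.4 in the low libraries. For B and plasma cells they were 10.6 to 27.4 CPM in the high and 12.2 to 26.7 in the low libraries. Border macrophage markers, a list apart from the blood-borne cells, had a median of 0.25 over 7 genes. Their summed levels were 18.9 to 27.1 CPM in the high and 16.3 to 28.3 in the low libraries. The part of the blood-borne cells and border macrophages in the interferon values was not tested.

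Among glia other than microglia, the 14 astrocyte markers had a median of -0.002, with 7 above and 7 below 0. Of 21 reactive astrocyte genes 20 had a change above 0, with a median of 0.26, but H2-D1, H2-T23, Psmb8 and Gbp2 belong to the interferon-related lists as well. Gfap, the intermediate filament of reactive astrocytes, had a change of 0.28 (SE 0.095, adjusted p = 0.8) and was separated in 3 groups. Clu, the gene of the knock-in allele, ran from 893.6 to 1360 CPM in the high and from 754.3 to 1235 in the low libraries (change 0.23, SE 0.091, adjusted p = 0.8). Oligodendrocyte markers had a median of -0.062 over 10 genes and their precursors -0.044 over 6.

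Most synaptic and activity-dependent genes had changes below 0, and none passed the adjusted threshold by edgeR. Of 23 synaptic genes 3 had a change above 0, the median was -0.15, and 4 were lower at an unadjusted p below 0.05, against 3.09% of all genes. With the single highest and lowest library of each group the synaptic median was -0.020, with 10 of 23 genes above 0 and 1 lower at an unadjusted p below 0.05. Pclo, a scaffold of the presynaptic active zone, ran from 129.9 to 245.9 CPM with a median of 177.0 in the high libraries and from 195.2 to 260.1 with a median of 222.3 in the low ones (change -0.33, SE 0.11, adjusted p = 0.8). Unc13a, which primes synaptic vesicles, had a change of -0.31 (SE 0.10), and the neuronal splicing factor Rbfox3 -0.27 (SE 0.11). Of 18 immediate early genes 1 had a change above 0, with a median of -0.22 and 2 lower at an unadjusted p below 0.05 (11.1%, against 3.09%), Fosb (-0.48, SE 0.18) and Fos (-0.44, SE 0.19), both activity-induced transcription factors. Dusp1, an activity-induced phosphatase, stood at -0.34 (SE 0.17). Without knock-in male 6 the median of the immediate early genes was -0.12. General neuronal markers had a median of -0.050 over 10 genes.

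Pitpnm3, a phosphatidylinositol transfer protein and the gene with the lowest p among those lower in the high libraries, ran from 35.8 to 57.5 CPM with a median of 46.8 in the high and from 47.9 to 78.4 with a median of 62.6 in the low libraries. Both high libraries lay below both low ones in 3 groups (change -0.40, SE 0.085, adjusted p = 0.646). Among stress genes, 12 of 13 of the unfolded protein response had a change above 0, with a median of 0.14, including the chaperone Hsp90b1 (0.18, SE 0.067) and the disulfide isomerase Pdia4 (0.24, SE 0.088).

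Lists of other tissue and RNA features held no gene past the adjusted threshold by edgeR. All 12 choroid plexus genes had a change above 0, with a median of 0.83 and 0 at an unadjusted p below 0.05 by edgeR. Ttr, the transthyretin made by choroid plexus, ran from 643.8 to 10490 CPM with a median of 3152 in the high libraries and from 37.7 to 4085 with a median of 1845 in the low ones, so the states overlapped widely (change 1.42, SE 0.83, adjusted p = 0.8). The 9 fibroblast genes had a median of 0.36, also with 0 at an unadjusted p below 0.05. All 8 long noncoding RNAs of the list lay below 0, with a median of -0.26, and their summed level ran from 1208 to 5909 CPM in the high and from 1340 to 8036 in the low libraries. The part of choroid plexus and fibroblast RNA in the interferon values was not tested. With the long noncoding level as a covariate the effector median was 0.44 and 26 effectors were higher at an unadjusted p below 0.05, and Slfn2 (1.17, SE 0.15) passed the threshold with an adjusted p of 0.0161.

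The difference between high and low libraries was also taken group by group. For the effectors the median was 0.52 in 5xFAD females, 0.14 in 5xFAD males, 0.41 in knock-in females and 0.41 in knock-in males, and 33 of 52 members were above 0 in 5xFAD males against 46 in 5xFAD females. Ifit3 set the states, so its own difference is a description, and it was smallest in the 5xFAD males among the 4 groups. Its means there were 15.8 and 10.4 unscaled CPM in the high and low libraries, against 28.4 and 15.4 in the 5xFAD females. A relation between these values and the effector medians was not tested. For the guanylate-binding list the medians were 0.65 and 0.54 in 5xFAD and knock-in females and 0.017 and 0.18 in 5xFAD and knock-in males. For the homeostatic microglia list they were 0.12 in both 5xFAD sexes and 0.35 and 0.44 in knock-in females and males.

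**Figure D4:**
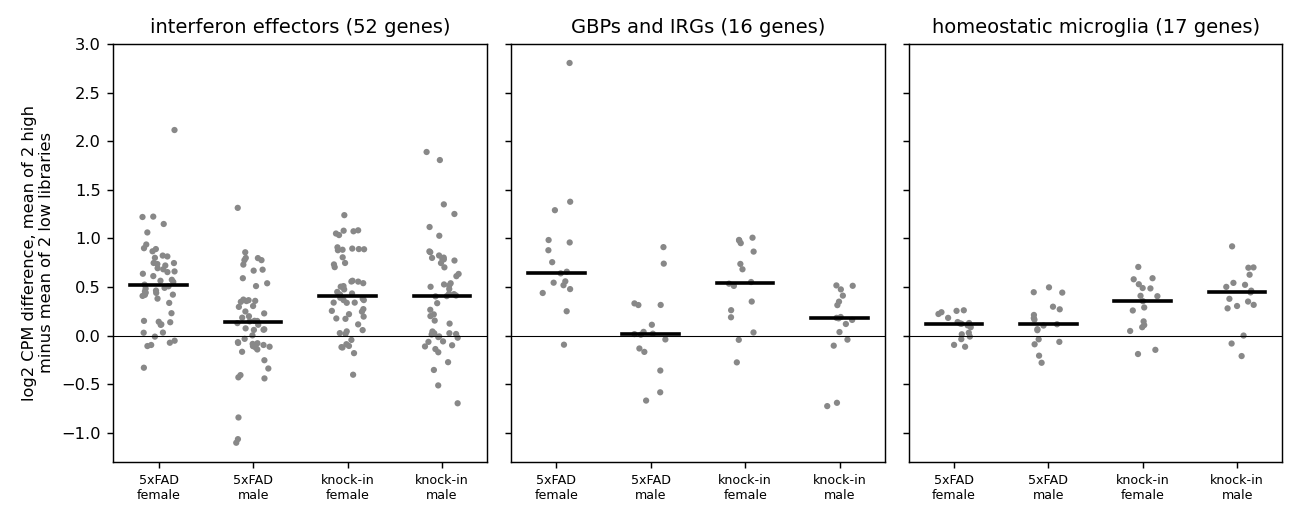
Difference in log2 CPM between the mean of 2 high and the mean of 2 low Ifit3 libraries (vertical axis) in each of 4 groups, for 52 interferon effectors, 16 guanylate-binding and immunity-related GTPases and 17 homeostatic microglia genes. Points are genes and bars are medians, and the effector median is 0.52 in 5xFAD females and 0.14 in 5xFAD males.

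Whether the difference between states itself differed by genotype or sex was tested with interaction terms in edgeR. By genotype, 0 of 17986 genes passed (lowest adjusted p 0.0875), with 1700 (9.45%) at an unadjusted p below 0.05. Their difference, high minus low, was higher in the knock-in for 672 genes (3.74%) and lower for 1028 (5.72%). DESeq2 called 11 higher and 59 lower and limma-voom called 0. By sex, 0 genes passed (lowest adjusted p 1), with 428 (2.38%) at an unadjusted p below 0.05, and DESeq2 and limma-voom called 0. The lowest p by genotype belonged to Zfp831, a zinc finger protein (knock-in minus 5xFAD -0.95, adjusted p = 0.0875), Kcna3, a voltage-gated potassium channel (-2.99, adjusted p = 0.0875), and Klhl11, a Kelch-like protein (-1.76, adjusted p = 0.139). By sex they belonged to Dmtf1, Fibcd1 and Ripk2, each with an adjusted p of 1. Of the guanylate-binding list 4 of 16 genes had a higher difference between states in females than in males at an unadjusted p below 0.05. The share of all genes was 1.86%, and the median interaction of the list was 0.48. Of the homeostatic microglia list 5 of 17 had a higher difference between states in the knock-in, against 3.74% of all genes. The median interaction was 0.34 and the lowest adjusted p 0.412. No gene of either list passed the adjusted threshold for these interactions.

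The 3 libraries set aside did not always lie between the states. On the mean log2 CPM of the effectors, 5xFAD female 4 stood at 2.36 between the high mean of 2.60 and the low mean of 2.08 of its group. 5xFAD male 6 stood at 1.95, close to the high mean of 1.93 and above the low mean of 1.78. Knock-in male 8, whose Ifit3 level nearly equalled that of a high library, stood at 2.50, above the high mean of 2.35 and the low mean of 1.94. For the guanylate-binding list it stood at 3.21 against 2.10 and 1.98, with 13 of 16 genes above both high libraries of its group. 5xFAD male 6 stood in the same way at 2.20 against 1.51 and 1.46, also with 13 of 16 genes above both high libraries, while 5xFAD female 4 had 1 of 16. Igtp, an immunity-related GTPase named after its value was seen, reached 26.1 CPM in knock-in male 8, against 2.56 to 14.1 in the 8 high libraries. Knock-in male 8 had all 7 class II genes above both high knock-in males, with a list mean of 3.06 against 1.93 and 1.95. The share of all tested genes above both high libraries was not counted, so these counts have no background. Such counts also occurred outside the immune lists. Knock-in male 8 had 9 of 10 oligodendrocyte and 10 of 14 astrocyte markers above both high libraries, but 0 of 12 choroid plexus genes and 5 of 23 synaptic genes. 5xFAD male 6 had 12 of 13 mitochondrially encoded genes above both. With this library as high in place of knock-in male 7, the median change was 0.46 for the effectors, 0.59 for the guanylate-binding list, 0.40 for MHC class I and 0.88 for MHC class II.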

How the data were processed

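Bulk RNA sequencing of the left hippocampus gave 1 library per mouse for 19 mice. The authors deposited estimated counts per gene as whole numbers, which were used as deposited, and 2 further tables of normalized and variance-stabilized values that were not used here. The tools named, per the submitters' processing notes, are Salmon, FastQC, Seurat and DESeq2, with the build mm39 and no versions or roles. Which library ran on which instrument, and whether strand was kept, is not given in the sources used here. GENCODE M21 gave symbols for 20023 of 20655 gene IDs (96.9%). Estimated counts split reads between near copies by model, so paralogs are uncertain.

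States were set by Ifit3 CPM on the library total. The other genes were fitted in edgeR 4.0.16 (R 4.3.3) with TMM factors over 19 libraries, filterByExpr (minimum count 10) on the 16 libraries, robust quasi-likelihood dispersions, and group plus state as terms. The interaction fit added state by genotype and state by sex. P-values were adjusted by Benjamini-Hochberg over 17986 genes, with a threshold of 0.05. They rest on the spread between animals left after group and state, among libraries chosen by their Ifit3 level. They do not cover the whole spread between animals. Log2 levels of lists use a prior count of 2. Scripts were tested on simulated counts. DESeq2 1.42.0, limma 3.58.1, other scalings, filters, covariates and choices of libraries, and leaving out each library, were alternatives. Shared 31-base words of transcripts measured overlap between genes, and promoter windows came from RefSeq tables by symbol.

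Named genes are the 5 with the lowest p, up to 6 per interferon list and up to 3 per other list by lowest p, 3 per interaction, Ifit3b and Clu. From lists outside the interferon system and microglia, not each such gene is printed. The comparison, the ranking gene and the lists were chosen with earlier results of these data known. Some items are not reported here.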

Additional observations from a re-analysis of the deposited data

Results flagged for a closer look

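Among 60 sets of 8 libraries examined, 23 genes and 7 list levels in each state, 1 held a library far from the others. Clec7a in knock-in female 2 was at 20.25 CPM among the low libraries, where the next value was 12.79 CPM. Its gap to the next library was 0.577 of the whole range, above the critical value of 0.526 for 8 values, and chance gives about 1 such set in 20. The libraries of a state come from 4 groups, so the range includes differences between groups. No explanation was tested.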

How the results depend on the processing

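The count of genes past the threshold was 0 in both directions for the states under limma-voom, other scalings, other filters and 4 against 4 libraries. It was 9 higher and 2 lower with DESeq2, 1 higher (Slfn2) with the noncoding RNA covariate, 3 higher (Oasl2, Ifit1 and Ifit3b) with Ifit3 as a continuous term over 19 libraries, and 2 higher with knock-in male 8 in place of 7, an alternative chosen after seeing the data. Leaving out 1 library gave 0 to 1 higher and 0 lower. For the state by genotype term DESeq2 gave 11 higher and 59 lower, and leaving out 1 library gave 0 to 1 higher (1 without knock-in female 2 or 5xFAD male 9) and 0 to 5 lower (5 without 5xFAD male 9, 1 without knock-in male 9). Title numbers do not pair the libraries. Over 9 pairs of same-numbered libraries the deviations correlated between -0.212 and 0.123, with 2 over 0.1, and 1 correlated best with its own number. A replicate block with these numbers left 0 genes for the states and gave 1 higher and 7 lower for the state by sex term. Their log2 values were 11.5 (Rpl15-ps3) and from -36.6 (Gm13304) to -11.6 (Gdf1), too large to read as differences in level. Gm13625, for the state by genotype term without knock-in female 2, stood at 13.7 and is read the same way. A high and a low library share a number only for 2, 7 and 10. Numbers 1, 5 and 9 hold the same state in both genotypes, and 3, 4, 6 and 8 hold a single compared library. State values under the replicate block thus rest on few libraries, and cannot decide whether a change depends on the processing. The replicate block gave 4 effectors at an unadjusted p below 0.05 and an effector median of 0.18. Under it the immediate early median turned to 0.093 (11 of 18 genes above 0) and the sensor median to -0.085 (7 of 22). With the microglia covariate 8 effectors were at an unadjusted p below 0.05. The sign of some named genes turned, none of them called. Under the replicate block these were Il18 (-0.10), Ifi207 (-0.098), Parp12 (-0.12), Fos (0.10) and Dusp1 (0.13). With the microglia covariate they were Il15 (-0.075), Il18 (-0.17), Irf8 (-0.086), C3ar1 (-0.031) and Itgb2 (-0.034), and without knock-in male 10 Il18 (-0.024). Over all libraries left out in turn, Il18 ran from -0.024 to 0.14. The cause was not tested. The median of all genes lay between -0.023 and 0.009 in every setting run. Genes with few counts, such as Slfn2 and Ccl12, carry larger counting error than the rest, and 2 libraries per state and group limit values within a group.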

Other observations

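The genes with the lowest p were unevenly spread over chromosomes. Of the 50 with the lowest p, 11 lie on chromosome 11, which holds 7.23% of the tested genes, and 12 of the 100 with the lowest p lie there. Slfn2, Slfn5, Lgals3bp and Ccl12 are encoded on this chromosome, and neighbouring members of the Schlafen and chemokine families are not independent.

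Lists outside the immune system gave values near those of all genes in most cases. Mural cell markers had a median change of 0.16 over 10 genes, endothelial markers 0.091 over 13, ependymal markers -0.021 over 8 and mitochondrially encoded genes 0.012 over 13, each with 0 to 2 genes higher at an unadjusted p below 0.05. In the state by genotype term no mitochondrially encoded gene passed the adjusted threshold by edgeR (lowest adjusted p 0.367). For 8 of 13 the difference between states was higher in the knock-in at an unadjusted p below 0.05 (3.74% of all genes). The median interaction was 0.60. Within the groups their median difference was -0.042 in 5xFAD females, -0.59 in 5xFAD males, 0.20 in knock-in females and 0.48 in knock-in males.

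Gene lists of interneurons (median 0.038 over 8 genes), dentate granule cells (-0.031 over 6), pyramidal cells (-0.048 over 7), heat shock (0.074 over 10), glucocorticoid response (-0.018 over 9), globins of erythrocytes (0.13 over 5) and genes of retroelement silencing (-0.059 over 7) had no gene past the adjusted threshold.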
